A study of Homo sapiens with 23 samples.

Results

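Day 14 of a cardiomyocyte differentiation was compared with the days on either side of it, to describe the genes that were higher or lower at day 14 than at both day 7 and day 28. The cells were H1-hESC, an established human embryonic stem cell line, of wild-type genotype, and every library of the series came from this 1 line taken through the same directed differentiation. Day 14 had 3 libraries of cells that the labels call cardiomyocytes, day 7 had 3 libraries of cells called cardiac progenitors, and day 28 had 3 libraries of cells called cardiomyocytes. These 9 libraries are part of 23, from 8 days between day 0 and day 28, and the other 14 entered the filter on low counts and the estimate of the spread, with levels on other days given where stated. No other cell line or differentiation was analysed here.

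Cardiac progenitors become beating cardiomyocytes by switching on the sarcomere, the contractile lattice of actin and myosin filaments, and by leaving the cell cycle. Young cardiomyocytes still carry actins and actin-binding proteins that are best known from smooth muscle and that depend on the serum response factor SRF, while MYH6 encodes the fast alpha myosin heavy chain and MYH7 the slower beta chain of later human ventricle. Cultures of this kind can also hold fibroblast-like, smooth-muscle-like, endothelial and endodermal cells, because heart mesoderm and endoderm arise side by side. In such bulk samples fewer cells of a type and less RNA per cell cannot be told apart.

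Counts assigned to genes lay between 7453975 and 8642801 per library at day 14, between 4506749 and 8889988 at day 7 and between 14644475 and 15637683 at day 28. Levels are given in CPM, counts scaled by the effective library size, and differences as log2 changes. Of the cardiomyocyte markers checked, TNNT2, the cardiac troponin T gene, stood between 2240 and 2787 CPM at day 14, between 1737 and 2035 at day 7 and between 3532 and 4150 at day 28, and NKX2-5, a heart transcription factor, between 238 and 305, 248 and 299, and 205 and 247 CPM on the same days. Mitochondrially encoded messenger RNA took 2.52% to 3.16% of counts at day 14, 2.51% to 2.52% at day 7 and 1.78% to 2.01% at day 28. The labels do not say that libraries of a day came from separate cultures, so p-values measure the spread between these libraries, which may be technical.

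In edgeR's quasi-likelihood test with Benjamini-Hochberg adjustment, 2232 of 22245 genes tested were higher at day 14 than the mean of days 7 and 28 (10.0%) and 1610 were lower (7.24%), at an adjusted p under 0.05. A gene on a steady climb can pass that contrast, so the flanking days were also tested singly. Against day 7, 4893 genes were higher at day 14 (22.0%) and 4343 lower (19.5%). Against day 28, 1730 were higher (7.78%) and 1771 lower (7.96%). A peak is here a gene called higher than day 7 and higher than day 28, and a dip a gene called lower than both. There were 520 peaks (2.34% of genes tested) and 385 dips (1.73%), and all of these also passed in the contrast with the mean of days 7 and 28. Of the other 1712 genes higher in the mean contrast, 1294 were above day 7 only and 342 above day 28 only, and of the other 1225 lower genes 913 were below day 7 only and 292 below day 28 only. Both flanking comparisons use the same 3 day 14 libraries, so they are not independent.

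The number of peaks moved with single libraries. It was 308 without day 14 replicate 1, 323 without replicate 2 and 273 without replicate 3, and 324 without day 28 replicate 2, 287 without day 28 replicate 3 and 334 without day 7 replicate 3. The number of dips stayed between 274 and 413 as each of the 9 libraries was left out. In the mean contrast the higher genes numbered 1078, 1246 and 1076 without day 14 replicates 1, 2 and 3, 1476 and 1381 without day 7 replicates 1 and 3, and 1487 without day 28 replicate 3, and the lower genes numbered 983 and 1073 without day 14 replicates 1 and 3. Genes above day 7 numbered 3217, 3192 and 2937 without day 7 replicates 1, 2 and 3, and genes above day 28 numbered 1111 without day 14 replicate 3 and 972 without day 28 replicate 3. A total of 160 peaks and 172 dips kept their call whichever of the 9 libraries was left out. With library totals in place of TMM factors, the median log2 change of all genes against day 28 was 0.23 in place of 0.03, and 68.0% of genes called against day 28 were higher in place of 49.4%.

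**Figure D1:**
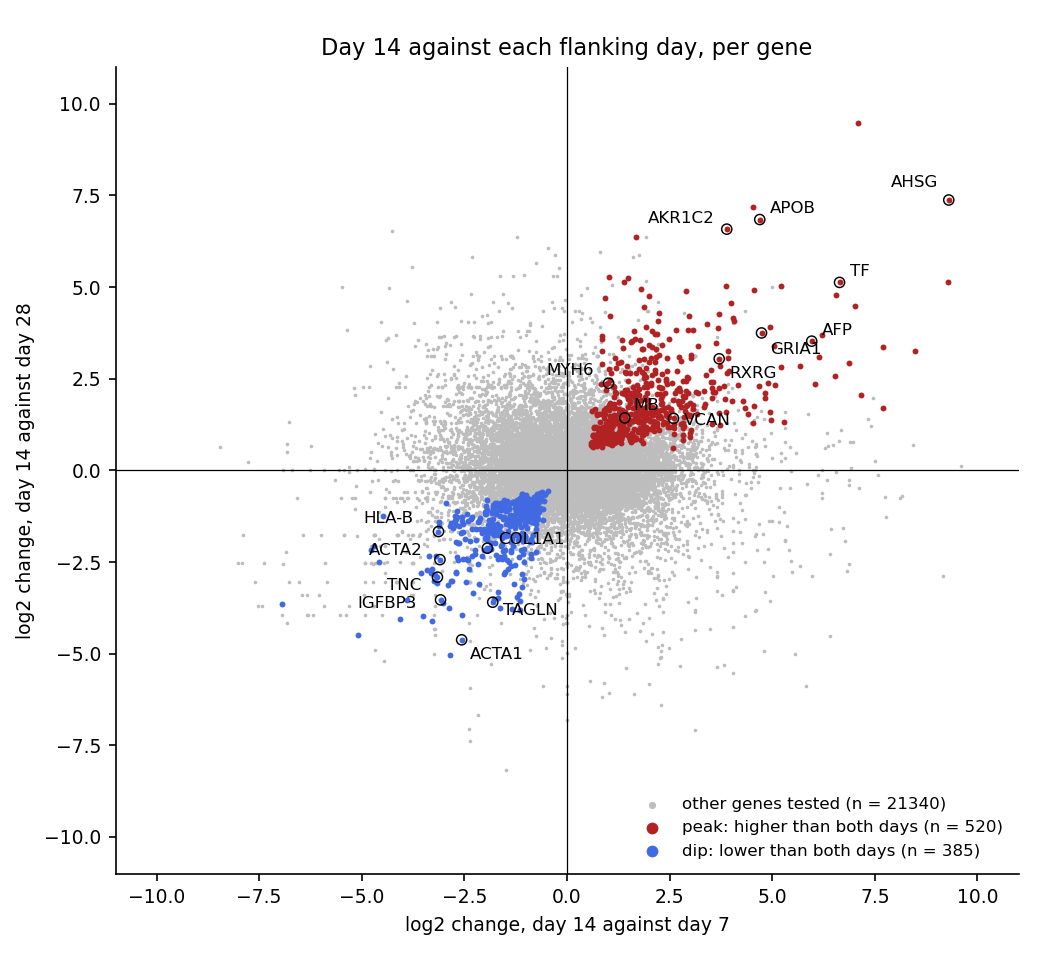
Each dot is a gene, with its log2 change at day 14 against day 7 on the horizontal axis and against day 28 on the vertical axis. The 520 peaks (red) lie at the upper right and the 385 dips (blue) in the lower left, with AHSG at 9.30 and 7.38 and ACTA1 at -2.57 and -4.62 among the genes circled.

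The smaller of a gene's 2 log2 changes had a median of 1.41 over the peaks and -1.13 over the dips. Of the peaks, 396 differed at least 2-fold from both days and 113 at least 4-fold, while 241 and 46 dips did. The day 14 libraries did not overlap with either flanking day for 477 peaks and 370 dips. These genes were called from the same libraries, so the lack of overlap is no separate support, and its share over all genes is not given. Over the whole course, day 14 had the highest mean of all 8 days for 405 peaks, and the other peaks were highest at day 0 (38), day 1 (26), day 3 (14), day 5 (1) or day 10 (36). Day 14 had the lowest mean of all days for 228 dips, and another 79 were lowest at day 0, in the stem cells. Day 10 already lay above both flanking means for 421 peaks and below both for 302 dips, but beyond the day 14 mean for only 43 peaks and 12 dips. The most extreme of the 3 day 14 libraries was replicate 1 for 202 peaks, replicate 2 for 100 and replicate 3 for 218, and among dips replicate 2 was lowest for 66, against 165 for replicate 1 and 154 for replicate 3.

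By gene type, 357 of the dips were protein coding (92.7%) and 23 were long non-coding RNAs (5.97%), while of the peaks 363 were protein coding (69.8%) and 96 long non-coding RNAs (18.5%). Of all genes tested 70.2% were protein coding and 18.0% long non-coding RNAs. At the edge of the rule, ANKEF1 averaged 20.8 CPM at day 14, 11.6 at day 7 and 12.2 at day 28 and was the last gene inside the peaks. PHYH averaged 44, 18.9 and 29.2 CPM on these days and was just outside. Among dips PLEKHG2, at 29.1, 69.4 and 52.95 CPM, was just inside, and MMP15, at 263.9, 448.9 and 860.1 CPM, was just outside.

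**Figure D2:**
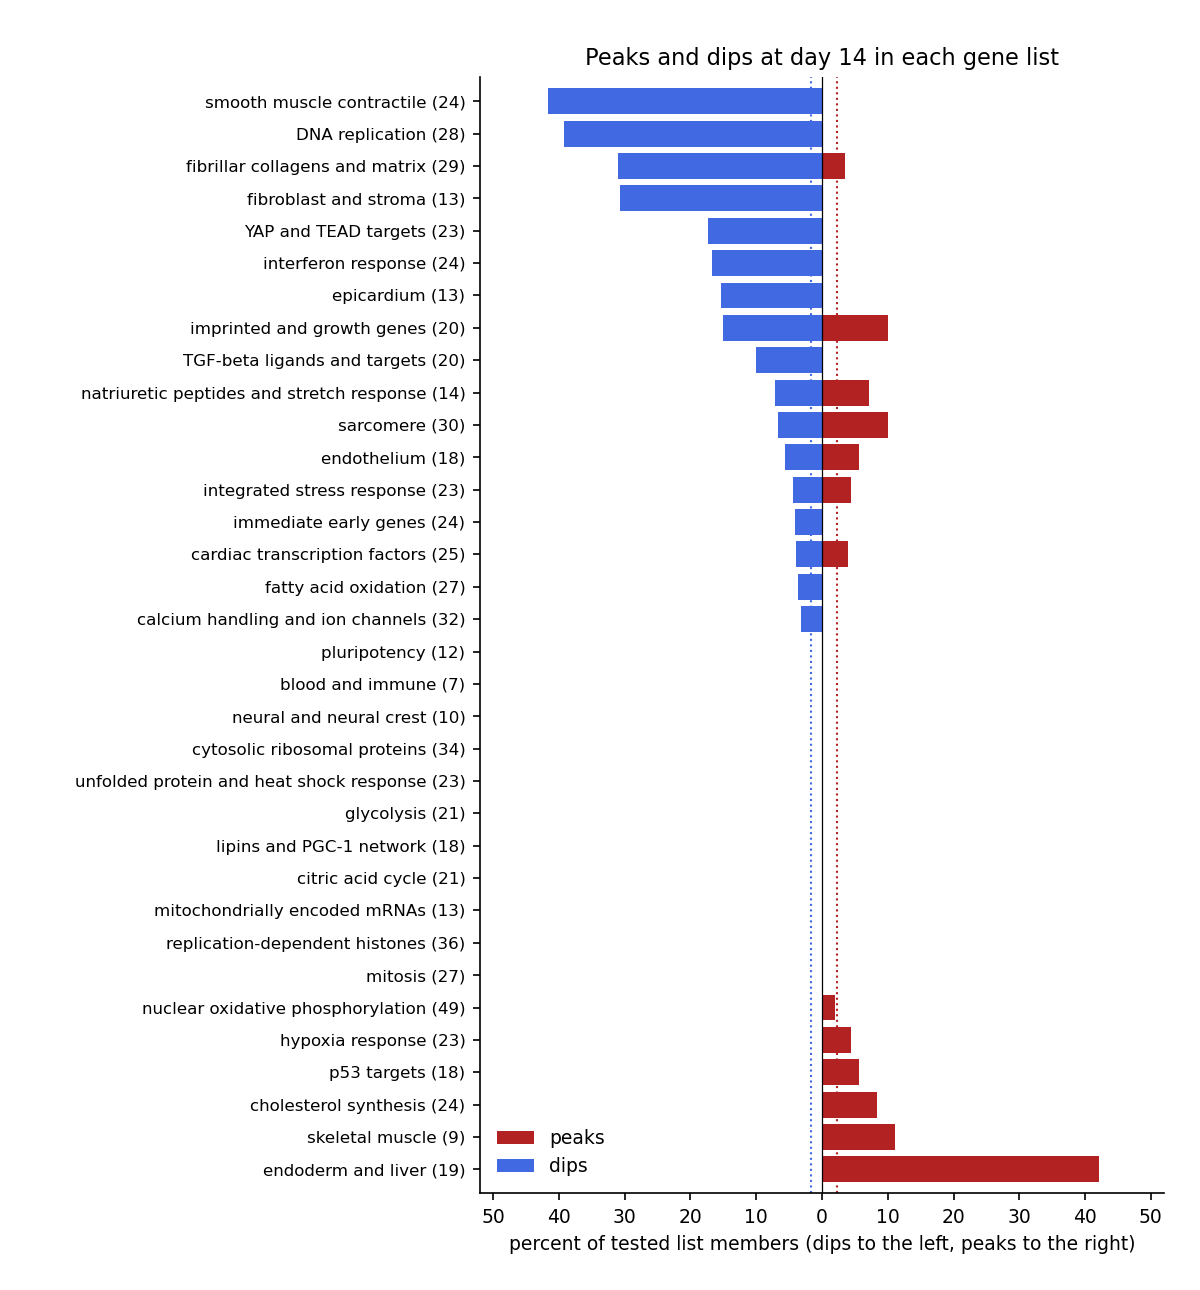
Bars give the percent of tested members that were dips (blue, to the left) or peaks (red, to the right) in each of 34 gene lists, with the number tested in brackets. Dotted lines mark the shares over all genes, 1.73% for dips and 2.34% for peaks. Smooth muscle contractile genes (10 dips of 24) and endoderm and liver genes (8 peaks of 19) stand at either end.

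Genes of liver products led the peaks by the size of their change. Of 19 endoderm and liver genes tested, 8 were peaks and none was a dip (0 dips also at an unadjusted p under 0.05 and in DESeq2), where 2.34% of all genes were peaks, and the list's median log2 change in the mean contrast was 1.24 beside 0.06 for all genes. Its median was 0.17 against day 7, with 9 members above and 9 below that day, where 22.0% and 19.5% of all genes were. Against day 28 the median was 2.32, with 16 above, where 7.78% of all genes were. AHSG (ENSG00000145192), on chromosome 3, encodes fetuin-A, a glycoprotein that hepatocytes secrete. It had 69.4, 196 and 333 CPM in the 3 day 14 libraries, 0.392, 0.361 and 0.207 CPM at day 7 and 0.961, 1.24 and 1.37 CPM at day 28. All day 14 libraries lay far above the rest, with replicate 1 the lowest and replicate 3 the highest. The log2 change of AHSG was 9.30 against day 7, 7.38 against day 28 and 8.34 against their mean (SE 0.55, adjusted p = 4.09e-10).

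AFP, which encodes alpha-fetoprotein, the main plasma protein of the fetal liver and yolk sac, spans 73431138 to 73456174 on the plus strand of chromosome 4 in GRCh38. Its level was 418, 2084 and 2727 CPM at day 14, against 36.3, 30.0 and 17.9 CPM at day 7 and 95.8, 131 and 227 CPM at day 28. The groups did not overlap, though replicate 1 of day 14 was again well below the other two. The log2 change was 5.96 against day 7 and 3.53 against day 28 (mean contrast 4.74, SE 0.48, adjusted p = 2.49e-07). The RefSeq promoter window of AFP (GRCh38.p14, chr4:73435971-73436270, plus strand) is shown because AFP is, with SERPINA1, among the most abundant of these peaks. Capitals mark GTTAAT, a half-site of the liver factor HNF1, at bases 119 to 124, and TATAAA at bases 222 to 227, both chosen after the values were seen:
AFP: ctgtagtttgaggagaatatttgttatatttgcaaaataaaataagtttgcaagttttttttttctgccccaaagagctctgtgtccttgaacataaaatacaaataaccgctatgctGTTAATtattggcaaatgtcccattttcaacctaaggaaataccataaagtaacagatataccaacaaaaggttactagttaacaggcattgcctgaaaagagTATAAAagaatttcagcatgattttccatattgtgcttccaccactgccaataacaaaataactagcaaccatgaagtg
On either strand GTTAAT occurs in 6.88% of 35116 promoter windows of this length and TATAAA in 11.5%. A match is a description of the letters, not of binding.

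APOB, TF and FGG had the same order of libraries. APOB, the structural protein of low-density lipoprotein, had 361, 1069 and 1901 CPM at day 14, 52.96, 41.4 and 34.3 at day 7 and 6.95, 7.5 and 14.5 at day 28, a log2 change of 5.77 in the mean contrast (SE 0.42, adjusted p = 1.09e-09). TF, which encodes the iron carrier transferrin, had 15.7, 49.4 and 165 CPM at day 14, against 1.37, 0.602 and 0.519 at day 7 and 2.29, 2.16 and 2.09 at day 28. FGG and FGB encode fibrinogen chains: FGG had 25.6, 71.7 and 164 CPM at day 14, against 4.90, 5.30 and 6.02 at day 7 and 2.37, 4.95 and 3.68 at day 28. In each of them replicate 1 of day 14 was lowest and replicate 3 highest. The protease inhibitor gene SERPINA1, at 566, 2471 and 2382 CPM in the day 14 libraries, averaged 1806 ± 1075 CPM at day 14, 57.6 ± 1.59 at day 7 and 691 ± 154 at day 28 (SD, n = 3 each), and the apolipoprotein genes APOA1 and APOA2 averaged 112 ± 75.2 and 130 ± 81.6 CPM at day 14, against 31.2 ± 2.17 and 62.4 ± 3.97 at day 7 and 11.3 ± 1.94 and 7.04 ± 0.595 at day 28.

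The endoderm transcription factors did not share this course. FOXA1, FOXA2 and FOXA3, pioneer factors of endoderm, were below day 7 and above day 28, as were GATA3, the epithelial genes EPCAM and CDH1, and TTR, a carrier of thyroid hormone. FOXA2 had 3.84, 7.99 and 6.56 CPM at day 14, against 36.3, 50.8 and 55.2 at day 7 and 0.887, 0.695 and 0.433 at day 28. HNF4A, a nuclear receptor of hepatocytes, had 9.37, 25.4 and 42.1 CPM at day 14, 20.8, 25.5 and 21.9 at day 7 and 4.07, 5.02 and 6.27 at day 28, and passed against day 28 (log2 2.32) but not day 7 (log2 0.17, adjusted p = 0.77). ALB, which encodes albumin, had 5.30, 20.04 and 28.6 CPM at day 14, 0.392, 0.602 and 0.415 at day 7 and 5.17, 7.73 and 32.2 at day 28, and was above day 7 only. The summed level of the 19 genes was 1575, 6295 and 8165 CPM in day 14 replicates 1, 2 and 3, against 798.3 to 857 CPM at day 7 and 684 to 1129 CPM at day 28. At day 14 most of this sum came from AFP, SERPINA1 and APOB. They had 418, 566 and 361 CPM in replicate 1 and 2727, 2382 and 1901 CPM in replicate 3, so the sum says little about the other members. Without day 14 replicate 3 the number of peaks in this list was 4, in place of 8, and the part of endodermal cells in these levels was not tested.

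**Figure D3:**
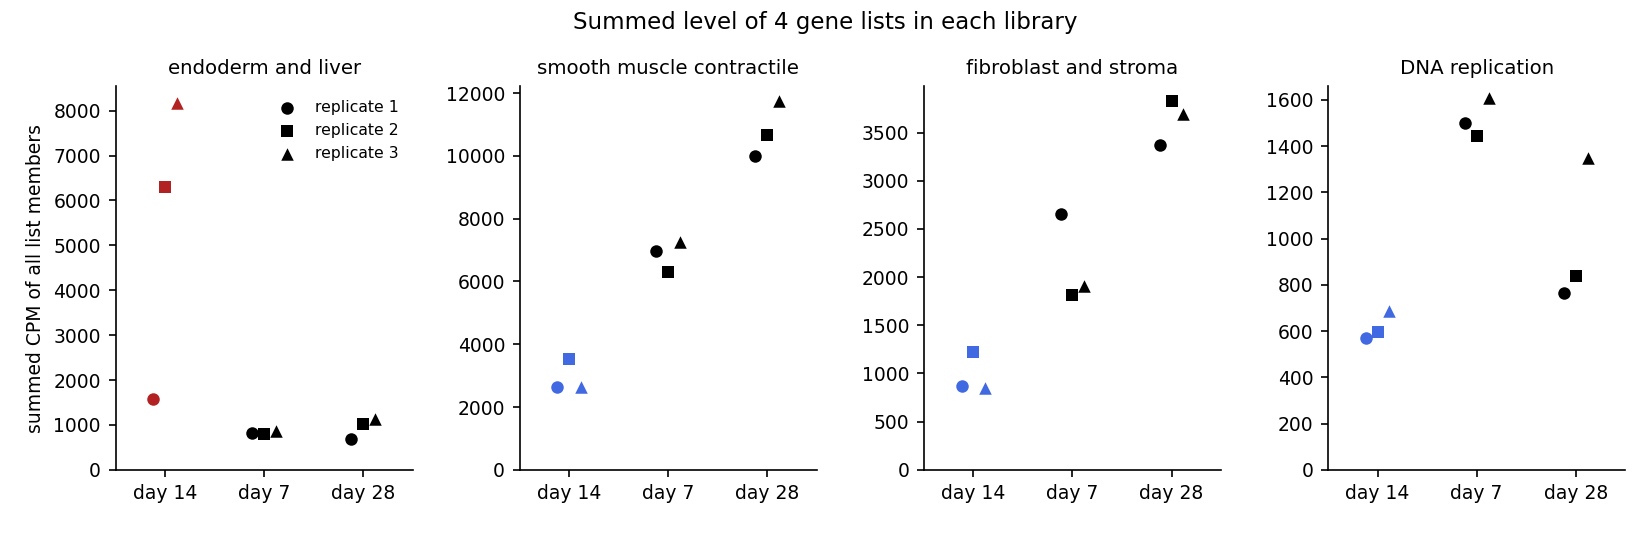
Points give the summed CPM of all members of 4 lists in each library of days 14, 7 and 28, with the replicate number as the shape and a linear axis from 0. Endoderm and liver genes spread from 1575 to 8165 CPM across the day 14 libraries, most of it from AFP, SERPINA1 and APOB. At day 14 the smooth muscle, stroma and DNA replication sums lay below every day 7 and day 28 library.

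Further peaks with known roles in liver lay outside that list. ABCC2, an efflux pump of the bile canaliculus, had 8.24, 17.5 and 40.2 CPM at day 14, against 1.37, 1.57 and 1.04 at day 7 and 1.92, 1.00 and 0.721 at day 28. PLG, which encodes plasminogen, the precursor of the clot-dissolving protease plasmin, had 9.14, 20.6 and 63.2 CPM at day 14, 1.18, 2.89 and 2.08 at day 7 and 1.33, 0.541 and 0.937 at day 28. A1CF, an RNA-binding cofactor of APOB messenger RNA editing, had 15.8, 45.9 and 66.9 CPM at day 14, against 0.981, 2.05 and 0.415 at day 7 and 5.40, 4.71 and 8.15 at day 28. In all 3 genes the order of the day 14 libraries was that of AHSG.

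AKR1C2, a steroid-reducing enzyme, had 29.0, 38.2 and 85.3 CPM at day 14, 3.33, 3.13 and 3.73 at day 7 and 0.813, 0.309 and 0.433 at day 28, and its reads can be shared with the near-identical genes of its family. AGT, which encodes angiotensinogen, the precursor of the angiotensins, had 39.8, 85.1 and 119 CPM at day 14, against 4.51, 3.37 and 2.80 at day 7 and 30.8, 44 and 25.0 at day 28, where the ranges overlapped. AGT was no longer called against day 28 without day 14 replicate 3 (log2 0.86, adjusted p = 0.117) or day 28 replicate 3 (log2 1.08, adjusted p = 0.0693). Most of these changes were smaller without day 14 replicate 3. The smaller of the 2 log2 changes was then 6.75 in place of 7.38 for AHSG, 3.94 in place of 4.70 for APOB, 3.85 in place of 5.13 for TF and 3.04 in place of 4.0 for FGG. It was 3.17 in place of 4.05 for ABCC2, 2.69 in place of 3.86 for PLG and 3.18 in place of 3.89 for AKR1C2, and these 7 genes stayed called.

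Among the sarcomere genes 3 of 30 tested were peaks and 2 were dips, where 2.34% and 1.73% of all genes were, and 7 were higher and 6 lower in the mean contrast, where 10.0% and 7.24% were. MYH6 (ENSG00000197616), on the minus strand of chromosome 14 from 23381982 to 23408273, had 11040, 7942 and 10150 CPM at day 14, against 4040, 5553 and 4856 at day 7 and 1754, 1519 and 2332 at day 28. All day 14 libraries lay above all others, and day 10 stood between day 7 and day 14 at 7507 and 7239 CPM. The log2 change of MYH6 was 1.01 against day 7 (adjusted p = 0.0229), 2.38 against day 28 (adjusted p = 3.23e-05) and 1.69 in the mean contrast (SE 0.29, adjusted p = 0.000221). Its call against day 7 was lost without day 14 replicate 1 (adjusted p = 0.11) or 3 (0.0893) and without day 7 replicate 1 (0.135), 2 (0.0616) or 3 (0.0966). Reads of MYH6 and its close copy MYH7, which lies next to it, can be split between them in counting.

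MYH7 did not peak. It had 651, 2403 and 1075 CPM at day 14, 267, 291 and 315 at day 7 and 19700, 21340 and 12740 at day 28, above day 7 and below day 28. TTN and ACTN2, which encode the giant spring protein titin and the Z-disc actinin, were above day 7 only: TTN had 2355, 2107 and 1896 CPM at day 14, 340, 431 and 344 at day 7 and 2639, 2352 and 2331 at day 28. The median log2 change of the sarcomere list was -0.13 in the mean contrast, 0.71 against day 7 and -1.07 against day 28. The M-band gene MYOM2 was a peak, at 80.5, 35.1 and 66.0 CPM at day 14, against 27.7, 32.2 and 28.9 at day 7 and 16.7, 20.2 and 20.6 at day 28, but not without day 14 replicate 1 (log2 0.66, adjusted p = 0.0592). MYOM3, its relative, was the other peak, at only 30 counts over the day 14 libraries, 8 over those of day 7 and 10 over those of day 28, and lost its call without day 14 replicate 2 or 3, day 7 replicate 1 or 3 or day 28 replicate 3 (adjusted p between 0.057 and 0.156).

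MB encodes myoglobin, the oxygen store of heart and slow skeletal muscle. It had 218, 149 and 193 CPM at day 14, 73.2, 67.3 and 70.2 at day 7 and 73.0, 82.2 and 52.1 at day 28. The flanking days overlapped and every day 14 library was above them (mean contrast log2 1.42, SE 0.27, adjusted p = 0.000841). COX6A2, the heart and muscle isoform of a cytochrome oxidase subunit, had 20.4, 19 and 15.6 CPM at day 14, 3.33, 6.02 and 4.88 at day 7 and 3.40, 4.09 and 1.88 at day 28 (mean contrast log2 2.24, SE 0.28, adjusted p = 4.91e-06). It was the only peak among 49 nuclear genes of oxidative phosphorylation, of which 5 were higher in the mean contrast, and MB the only one among 23 hypoxia response genes. These counts are near the shares over all genes, 2.34% for peaks and 10.0% for higher genes.

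LPIN1, which encodes the phosphatidate phosphatase lipin-1 and is named in the title of the series, was not a peak. It had 87.1, 95.6 and 95.8 CPM at day 14, 38.8, 35.9 and 31.3 at day 7 and 95.7, 88.5 and 83.8 at day 28. Day 14 and day 28 overlapped (log2 0.05, adjusted p = 0.933), while day 14 was above day 7 (log2 1.39, adjusted p = 0.000349). PPARGC1A and ESRRG, a coactivator and a nuclear receptor of the mitochondrial programme, were likewise above day 7 only, at 221 ± 74.4 and 79.5 ± 12.8 CPM at day 14, 46.6 ± 7.29 and 24.7 ± 3.06 at day 7 and 157 ± 17.1 and 62.9 ± 5.55 at day 28 (SD, n = 3 each). Of the 18 lipin and PGC-1 network genes, 7 were higher in the mean contrast, where 10.0% of all genes were. None was a peak or a dip, with 1 peak at an unadjusted p under 0.05 and 1 in DESeq2.

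MEF2C, a MADS-box factor of heart and muscle, was the only peak of 25 cardiac transcription factors, where 2.34% of all genes were peaks. It had 472, 247 and 208 CPM at day 14, 121, 142 and 127 at day 7 and 108, 107 and 110 at day 28, and was highest in replicate 1. The call ended without day 14 replicate 1 (log2 0.70, adjusted p = 0.143) and without day 7 replicate 1 (log2 1.08, adjusted p = 0.0509). RXRG, a retinoid X receptor, had 190, 88 and 124 CPM at day 14, against 11.8, 8.43 and 10.7 at day 7 and 17.9, 20.8 and 10.1 at day 28, with a log2 change of 3.38 in the mean contrast (SE 0.25, adjusted p = 4.06e-09). Day 10 had 82.4 and 69.7 CPM of RXRG, already above both flanking days. In GRIA1, a subunit of AMPA glutamate receptors, day 14 had 28.2, 30.7 and 23.6 CPM, day 7 had 0.589, 0.964 and 1.35 and day 28 had 2.66, 1.93 and 1.51. LRRN3, a neuronal leucine-rich repeat gene, had 131, 77.5 and 59.8 CPM at day 14, 7.65, 7.71 and 6.22 at day 7 and 7.54, 7.42 and 9.09 at day 28. RXRG and LRRN3 were highest in day 14 replicate 1, in which the liver genes were lowest.

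**Figure D4:**
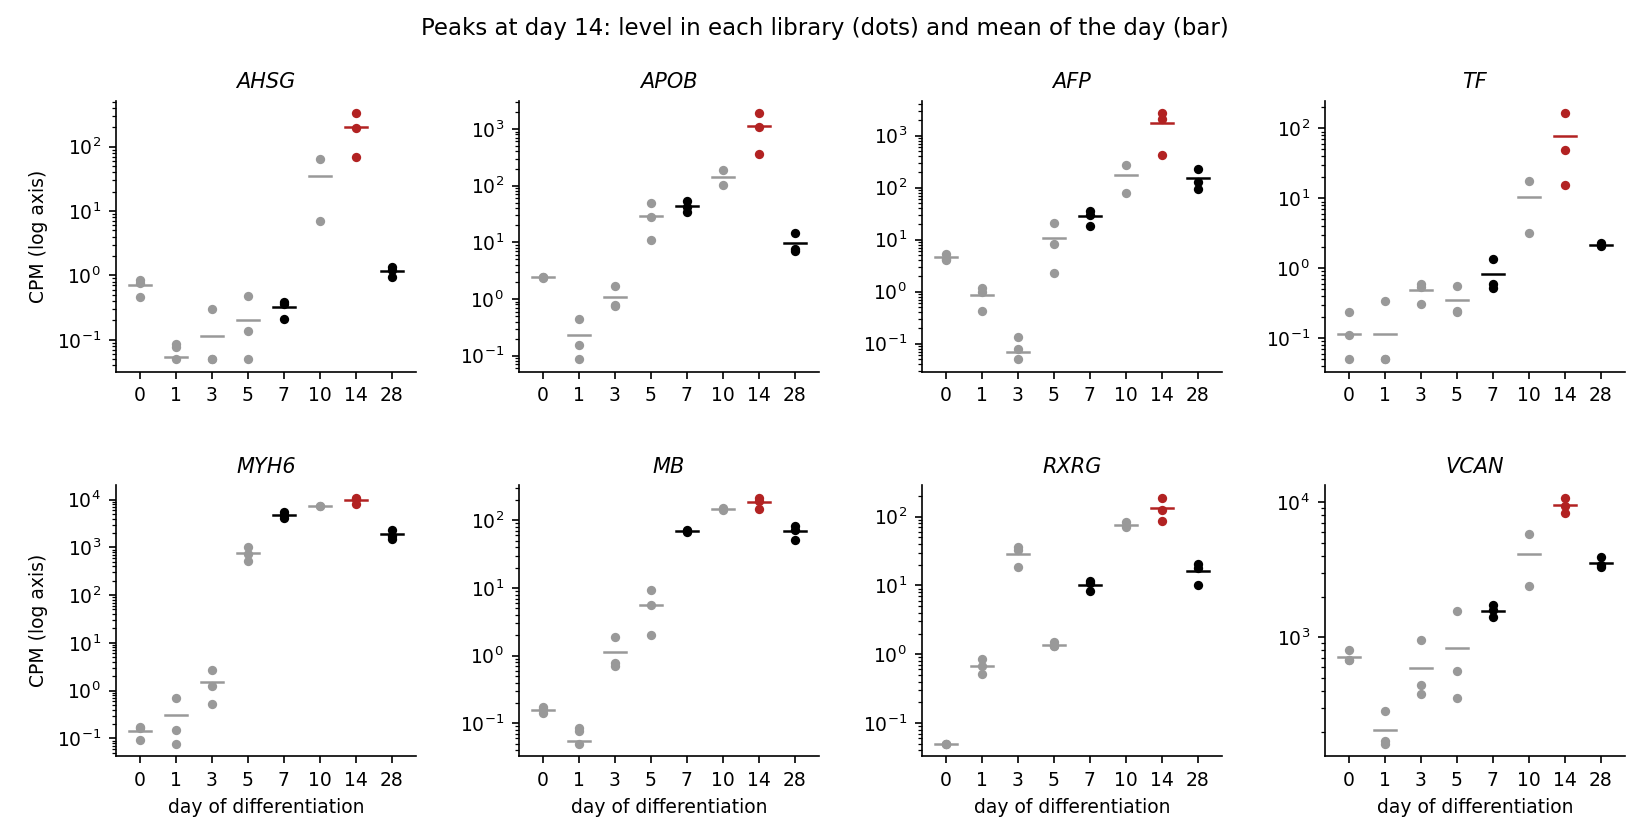
CPM on a log axis is plotted against day for 8 peaks, with a dot per library, a bar for the mean of each day and zeros drawn at 0.05 CPM. Day 14 (red) stands above days 7 and 28 (black) in each, by log2 9.30 and 7.38 in AHSG and by 1.41 and 1.43 in MB.

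VCAN, which encodes the matrix proteoglycan versican of the early heart, was the only peak of 29 matrix genes, where 2.34% of all genes were. Its level was 10830, 8349 and 9415 CPM at day 14, 1592, 1737 and 1401 at day 7 and 3419, 3320 and 3958 at day 28. Its libraries did not overlap between days (mean contrast log2 2.01, SE 0.33, adjusted p = 0.000163), yet the adjusted p against day 28, 0.0169, was 0.0647 without day 14 replicate 1 and 0.0664, 0.0744 and 0.0548 without day 28 replicates 1, 2 and 3. SC5D, an enzyme of cholesterol synthesis, had 633, 663 and 638 CPM at day 14, 125, 128 and 144 at day 7 and 229, 205 and 177 at day 28. The day 14 libraries of SC5D were close together, and it was a peak among 24 cholesterol genes. Of these 24, 8 were higher and 1 lower in the mean contrast, where 10.0% and 7.24% of all genes were.

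The imprinted genes PEG3 and PEG10 were peaks as well. PEG3, a zinc-finger gene expressed from the paternal copy, had 136, 112 and 159 CPM at day 14, 50.0, 40.8 and 36.2 at day 7 and 41.2, 36 and 40.4 at day 28. Its groups were well apart, but the larger adjusted p was 0.0681 without day 14 replicate 3, 0.0547 and 0.069 without day 7 replicates 2 and 3, and 0.0599, 0.0789 and 0.0742 without day 28 replicates 1, 2 and 3. PEG10 had 893, 247 and 316 CPM at day 14, 245, 178 and 186 at day 7 and 174, 155 and 210 at day 28, and without day 14 replicate 1 its smaller log2 change was 0.36 (adjusted p = 0.501) in place of 1.26. Leaving out day 7 replicate 2 or 3 or any day 28 library also ended the call, with adjusted p between 0.0601 and 0.106, as did a fit to the 9 libraries of the 3 days alone (0.0659).

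Smooth muscle contractile genes were among the lists with many dips. Of 24 tested, 10 were dips and none a peak (0 peaks also at an unadjusted p under 0.05 and in DESeq2), where 1.73% of all genes were dips, and 20 were lower in the mean contrast, where 7.24% of all genes were. The list's median log2 change was -1.55 in the mean contrast, -0.65 against day 7 and -2.01 against day 28. TAGLN (ENSG00000149591; chromosome 11, plus strand, bases 117199370 to 117207464) encodes transgelin, an actin-binding protein of smooth muscle and early heart muscle. It had 35.1, 144 and 48.3 CPM at day 14, against 224, 243 and 331 at day 7 and 765, 849 and 1139 at day 28. All 3 day 14 libraries were below all others, with replicate 2 the nearest to them. The log2 change was -1.81 against day 7 (adjusted p = 0.0011), -3.60 against day 28 (adjusted p = 1.06e-06) and -2.70 in the mean contrast (SE 0.39, adjusted p = 3.19e-05). Without replicate 2 the smaller change was -2.79. TAGLN was not yet low at day 10, where the libraries had 428 and 546 CPM.

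ACTA2 and ACTA1 encode the smooth muscle and skeletal muscle alpha actins, both made in embryonic heart muscle. ACTA2 had 70.4, 121 and 66.4 CPM at day 14, 749, 720 and 730 at day 7 and 369, 386 and 637 at day 28 (mean contrast log2 -2.77, SE 0.29, adjusted p = 3.35e-07). ACTA1 had 48.2, 40.4 and 21.6 CPM at day 14, 141, 247 and 265 at day 7 and 1054, 856 and 806 at day 28 (mean contrast log2 -3.59, SE 0.36, adjusted p = 2.49e-07). The day 14 libraries of both actins lay below every library of both days, and at day 10 ACTA2 stood at 434 and 496 CPM and ACTA1 at 235 and 249. The actin genes are near-identical copies in their coding parts, so reads could have been split between them. ACTC1, the cardiac actin, was below day 28 only.

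The promoters of both actins are shown because they dipped together and because actin promoters are the textbook case of the CArG box, the motif bound by SRF. The windows run from 250 bases before to 50 bases after the start in RefSeq (GRCh38.p14, minus strand), chr1:229434045-229434344 for ACTA1 and chr10:88952724-88953023 for ACTA2. Capitals mark an exact CArG box at bases 154 to 163 and TATAAA at bases 221 to 226 of ACTA1:
ACTA1: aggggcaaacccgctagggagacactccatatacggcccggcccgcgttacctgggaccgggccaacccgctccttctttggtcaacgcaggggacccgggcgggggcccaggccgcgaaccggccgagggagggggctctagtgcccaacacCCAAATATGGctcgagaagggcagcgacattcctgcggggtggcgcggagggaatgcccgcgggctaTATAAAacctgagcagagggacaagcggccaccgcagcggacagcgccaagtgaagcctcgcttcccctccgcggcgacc
ACTA2: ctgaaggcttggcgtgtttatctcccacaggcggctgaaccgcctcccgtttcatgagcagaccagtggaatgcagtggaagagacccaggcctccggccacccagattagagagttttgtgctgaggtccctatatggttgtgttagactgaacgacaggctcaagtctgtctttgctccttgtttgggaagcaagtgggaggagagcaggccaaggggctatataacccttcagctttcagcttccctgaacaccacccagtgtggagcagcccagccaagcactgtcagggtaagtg
The exact CArG box occurs, on either strand, in 454 of 35116 windows of this length (1.29%), and TATAAA in 4049 (11.5%). No exact match of either was found in the ACTA2 window shown or in the other window that RefSeq gives for ACTA2, which says only that these letters are not there. Near matches were not searched for. The ACTA2 window shown holds ccctatatgg and ccttgtttgg, each a single letter off the exact CArG box, so the search does not set the promoters of the actins apart. The E-box CANNTG, searched on both strands, occurs in 68.7% of windows and in both that are shown.

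SRF itself was a dip, the only one among the 25 cardiac transcription factors, where 1.73% of all genes were dips. It had 58.6, 40.3 and 44.7 CPM at day 14, 93.4, 103 and 105 at day 7 and 88, 83.1 and 126 at day 28. The groups did not overlap (mean contrast log2 -1.06, SE 0.30, adjusted p = 0.0173), but the call was lost without day 14 replicate 2 (adjusted p = 0.107) or 3 (0.091), without day 28 replicate 3 (0.133) and with library totals alone (0.0718).

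The other smooth muscle dips were actin-binding and cytoskeletal genes. FLNA, which encodes the actin cross-linker filamin A, had 245, 394 and 242 CPM at day 14, 1634, 1222 and 1503 at day 7 and 786, 874 and 999 at day 28. PDLIM7, a PDZ and LIM domain protein of actin fibres, had 21.9, 26.5 and 21.9 CPM at day 14, 68.8, 71.8 and 72.7 at day 7 and 88.5, 101 and 103 at day 28. The actinin gene ACTN1 averaged 98.6 ± 23.8 CPM at day 14, 237 ± 20.9 at day 7 and 594 ± 76.0 at day 28, and the myosin light chain gene MYL6 averaged 288 ± 27.4, 1055 ± 162 and 822 ± 129 CPM on these days (SD, n = 3 each). TPM2, SMTN, TAGLN2 and CSRP1 completed the 10, with log2 changes between -1.36 and -1.85 in the mean contrast.

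The genes most particular to mature smooth muscle had another course. MYH11, the smooth muscle myosin, had 16.5, 11.4 and 11.9 CPM at day 14, 12.4, 18.2 and 14.6 at day 7 and 59.4, 52.8 and 94.4 at day 28, and CNN1, which encodes calponin, had 123, 165 and 115, then 150, 158 and 167, and 1051, 1111 and 904 CPM on the same days. Both were below day 28 and did not pass against day 7 (log2 -0.19 and -0.24), as did MYLK, CALD1, LMOD1, ACTG2, SYNPO, MYL9, TPM4 and TGFB1I1. The summed level of the list was 2635 to 3537 CPM at day 14, 6315 to 7274 at day 7 and 9987 to 11760 at day 28. The 13 fibroblast and stroma markers summed to 852 to 1220, 1819 to 2658 and 3373 to 3830 CPM on these days. Singly they differed. Against day 7, 5 were below and 1 above, where 19.5% and 22.0% of all genes were. Against day 28, 8 were below and 2 above, where 7.96% and 7.78% of all genes were. COL3A1 alone gave 204 of 869 CPM in day 14 replicate 1 and 2040 of 3373 in day 28 replicate 1. The part of stromal cells in the smooth muscle dips was not tested.

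The sarcomere dip besides ACTA1 was TNNT1, the slow skeletal troponin T gene. It had 8.91, 21.6 and 6.56 CPM at day 14, 79.4, 57.9 and 81.0 at day 7 and 32.5, 41.3 and 16.3 at day 28, where the ranges overlapped. Its larger adjusted p was 0.113 without day 14 replicate 1, 0.134 without day 14 replicate 3, and 0.062 and 0.123 without day 28 replicates 1 and 2, and its smaller log2 change was -1.99 in place of -1.28 without day 14 replicate 2. The adjusted p was 0.0501 with library totals alone and 0.096 with only the 9 libraries of the 3 days.

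Collagens and other matrix genes dipped alongside. Of 29 matrix genes 9 were dips, where 1.73% of all genes were, and 13 were lower and 4 higher in the mean contrast, where 7.24% and 10.0% of all genes were. The median log2 change was -0.79. TNC encodes tenascin-C, a matrix glycoprotein of remodelling tissue. It had 19.9, 49.9 and 33.0 CPM at day 14, 373, 252 and 291 at day 7 and 211, 242 and 320 at day 28 (mean contrast log2 -3.03, SE 0.28, adjusted p = 9.91e-08). The flanking days overlapped with each other and lay well above day 14, and day 10 was still at 224 and 250 CPM. COL1A1, a chain of the main fibrillar collagen, had 91.5, 119 and 73.0 CPM at day 14, 455, 275 and 358 at day 7 and 394, 392 and 447 at day 28 (mean contrast log2 -2.03, SE 0.33, adjusted p = 0.000139). COL6A3, a microfibrillar collagen chain, had 9.03, 28.5 and 14.3 CPM at day 14, 99.5, 73.1 and 59.7 at day 7 and 92.8, 108 and 103 at day 28. In all 3 genes day 14 replicate 2 was the highest of its group, and without it the smaller change of COL6A3 was -2.85 in place of -2.16.

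FN1, which encodes fibronectin, averaged 1582 ± 977 CPM at day 14, 7148 ± 553 at day 7 and 4205 ± 310 at day 28, and SPARC, a collagen-binding glycoprotein, averaged 286 ± 126, 623 ± 81.5 and 831 ± 71.2 CPM (SD, n = 3 each). COL1A2, COL5A1 and the small proteoglycan gene BGN were further dips. COL3A1 had 204, 372 and 205 CPM at day 14, 961, 491 and 450 at day 7 and 2040, 2428 and 2182 at day 28, and its call against day 7 ended without day 14 replicate 1 (adjusted p = 0.068) or 3 (0.069) and without day 7 replicate 1 (0.116). Not all matrix genes took part: POSTN, LOX, THBS2 and COL5A2 were above day 7 and below day 28, and POSTN, the fibroblast gene periostin, averaged 53.8 ± 16.8 CPM at day 14, 0.691 ± 0.422 at day 7 and 262 ± 43.6 at day 28.

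Surface markers of fibroblasts and mural cells dipped as well. THY1, a surface glycoprotein of fibroblasts, had 2.14, 2.74 and 2.40 CPM at day 14, 15.5, 10.1 and 9.23 at day 7 and 10.9, 11.4 and 13.5 at day 28. PDGFRB, the receptor of pericytes and fibroblasts for platelet-derived growth factor, had 6.21, 15.5 and 7.32 CPM at day 14, 50.2, 23.7 and 30.1 at day 7 and 24.8, 24.2 and 30.4 at day 28. With COL1A1 and COL3A1 these were the 4 dips of 13 stromal markers (1.73% of all genes were dips), of which 6 were lower and 1 higher in the mean contrast, with a median log2 change of -0.87. DCN, which encodes decorin of fibroblasts, was below day 28 only, at 1.13, 1.19 and 1.89 CPM at day 14, 1.76, 0.723 and 0.830 at day 7 and 19.7, 23.7 and 21.6 at day 28.

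Of 20 imprinted and growth genes tested, 2 were peaks and 3 were dips, where 2.34% and 1.73% of all genes were. In the mean contrast 13 were not called. IGFBP3, a carrier of insulin-like growth factors, had 17.8, 50.0 and 25.0 CPM at day 14, 247, 274 and 264 at day 7 and 344, 386 and 344 at day 28 (mean contrast log2 -3.31, SE 0.32, adjusted p = 1.64e-07). It was already low at day 10, at 29.4 and 71.8 CPM, and without day 14 replicate 2 its smaller change was -3.73 in place of -3.08. IGFBP7, a related protein of vessels and stroma, had 29.0, 58.0 and 27.6 CPM at day 14, 151, 148 and 187 at day 7 and 185, 210 and 186 at day 28. H19, an imprinted long non-coding RNA, had 55.8, 196 and 158 CPM at day 14, 614, 278 and 267 at day 7 and 950, 1074 and 795 at day 28, and was not called without day 7 replicate 1 (adjusted p = 0.059).

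Further dips came from no single list, and all given here but LPL were named for the size of their change. CRABP2, which carries retinoic acid to its nuclear receptors, had 68.3, 77.5 and 58.0 CPM at day 14, 471, 431 and 437 at day 7 and 430, 527 and 470 at day 28 (mean contrast log2 -2.76, SE 0.28, adjusted p = 2.22e-07). PTGIS, which makes prostacyclin, had 5.30, 4.17 and 5.30 CPM at day 14, 33.4, 20.2 and 19.3 at day 7 and 50.5, 54.7 and 44 at day 28. LPL, the lipoprotein lipase gene, was named from the fatty acid oxidation list. It had 2.26, 4.65 and 3.66 CPM at day 14, 10.2, 8.91 and 8.40 at day 7 and 20, 19.9 and 24 at day 28. CES1, a carboxylesterase abundant in liver, dipped while the liver genes above peaked, with 4.29, 8.35 and 9.71 CPM at day 14, 33.4, 36.4 and 40.8 at day 7 and 35.3, 33.4 and 43.8 at day 28. CCDC3, a secreted coiled-coil protein, had 4.51, 12.1 and 4.16 CPM at day 14, 70.0, 30.5 and 30.6 at day 7 and 24.8, 26.7 and 30.6 at day 28, and without day 14 replicate 2 its smaller change was -2.69 in place of -1.98.

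**Figure D5:**
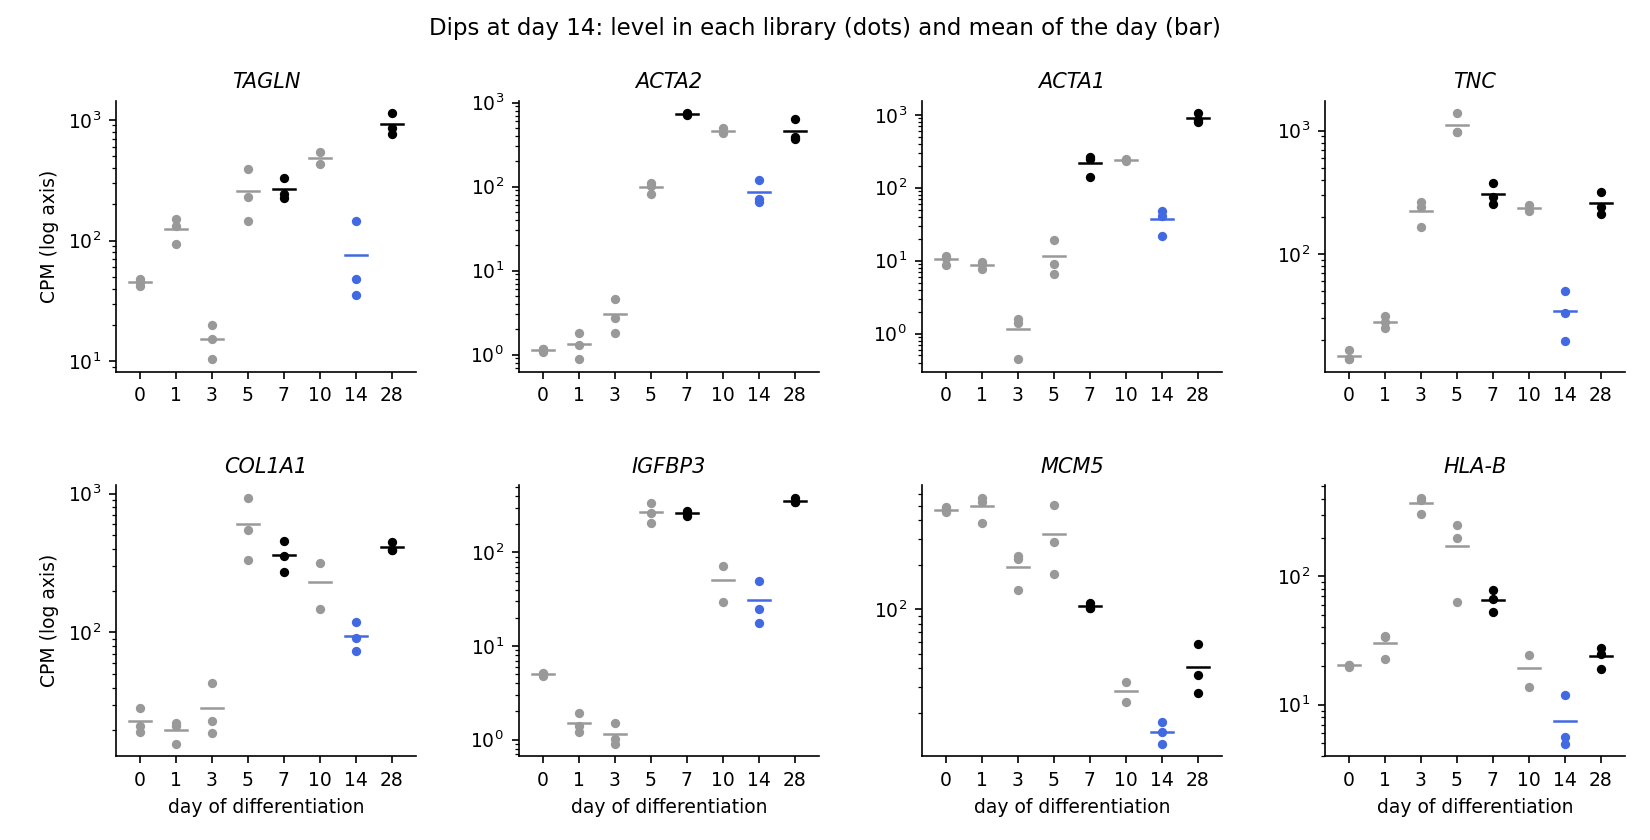
CPM on a log axis is plotted against day for 8 dips, with a dot per library and a bar for the mean of each day. Day 14 (blue) lies below days 7 and 28 (black) in each. TAGLN, ACTA2 and TNC were still high at day 10, at 428 to 546, 434 to 496 and 224 to 250 CPM, while IGFBP3 was already at 29.4 and 71.8.

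Of 23 targets of YAP and TEAD, the transcription partners that respond to cell tension, 4 were dips, 9 were lower and 2 higher in the mean contrast, beside 1.73%, 7.24% and 10.0% of all genes, with a median log2 change of -0.42. The number of dips was 7 without day 14 replicate 2. AJUBA, a LIM protein of cell junctions, had 50.0, 79.7 and 46.9 CPM at day 14, 127, 119 and 146 at day 7 and 149, 158 and 141 at day 28, and FJX1, a secreted relative of the fly gene four-jointed, had 4.51, 4.17 and 5.17, then 15.5, 15.7 and 18.9, and 17.3, 23.7 and 19.8 CPM on these days. CCN2, a matricellular growth factor, had 40.6, 94.4 and 39.5 CPM at day 14, 82.0, 91.4 and 123 at day 7 and 248, 255 and 309 at day 28. Its replicate 2 lay within the day 7 range: without it the smaller change was -1.42 in place of -0.77, and the call ended without day 14 replicate 1 (adjusted p = 0.123) or 3 (0.128), without day 7 replicate 3 (0.118) and with only the 9 libraries of the 3 days (0.077).

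Of 20 TGF-beta ligands and targets CCN2 and TGFB3 were dips, and 5 were lower and 2 higher in the mean contrast, beside 1.73% dips, 7.24% lower and 10.0% higher over all genes. With library totals alone the list had 1 dip and 4 lower genes. TGFB3, a ligand of the family, had 10.8, 11.3 and 8.33 CPM at day 14, 17.1, 24.6 and 21.3 at day 7 and 16.6, 18.5 and 17.7 at day 28, and was not called without day 14 replicate 3 (adjusted p = 0.1), without day 28 replicate 2 (0.0563), with library totals alone (0.097) or with no filter on low counts (0.0539). Among 24 immediate early genes, the fast responders to serum and stress, EGR1 was the only dip and 4 were lower in the mean contrast. EGR1 had 2.48, 7.04 and 3.66 CPM at day 14, 9.22, 7.95 and 9.54 at day 7 and 11.5, 8.50 and 13.2 at day 28, and was not called without day 14 replicate 1 (adjusted p = 0.0733). Without day 14 replicate 2 the smaller change of EGR1 was -1.65 in place of -1.02.

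DNA replication genes were another list with many dips. Of 28 tested, 11 were dips and 21 were lower in the mean contrast, where 1.73% and 7.24% of all genes were, and the median log2 change was -1.21, with -1.37 against day 7 and -0.67 against day 28. MCM5, a subunit of the replicative helicase, had 12.4, 14.9 and 17.4 CPM at day 14, 102, 103 and 110 at day 7 and 27.5, 35.9 and 58.4 at day 28 (mean contrast log2 -2.13, SE 0.31, adjusted p = 3.29e-05). GINS2, of the helicase's GINS complex, had 3.27, 2.98 and 5.05 CPM at day 14, 23.5, 21.0 and 23.6 at day 7 and 9.02, 7.42 and 20.3 at day 28. Day 14 was the lowest group in both, while day 28 was uneven, with replicate 3 above the other two.

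FEN1, the nuclease that trims Okazaki fragments, had 5.98, 9.78 and 14.4 CPM at day 14, 36.5, 30.5 and 46.1 at day 7 and 21.5, 24.2 and 41.2 at day 28. TK1, which makes thymidine monophosphate, had 2.82, 4.89 and 4.29 CPM at day 14, 23.3, 19.1 and 26.9 at day 7 and 11.5, 10.2 and 16.4 at day 28. PCNA, CDC6, RRM2, GINS1, UHRF1 and E2F1 were further dips. The summed level of the list was 568 to 686 CPM at day 14, 1445 to 1606 at day 7 and 763.7, 836.5 and 1349 in the day 28 libraries. The number of dips in this list was 5 without day 14 replicate 1 and 6 without day 28 replicate 3, in place of 11.

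Of 27 mitosis genes tested, 9 were lower in the mean contrast, where 7.24% of all genes were, and 18 were not called. None was a dip or a peak in edgeR's test, with 1 dip at an unadjusted p under 0.05 and 1 in DESeq2. Against day 7, 12 were lower, where 19.5% of all genes were. Against day 28 only KIF23 and ANLN were, where 7.96% of all genes were. The median log2 change was -0.74, and 24 had negative log2 changes against both days, called or not. The proliferation marker MKI67 had 20.4, 42.6 and 53.7 CPM at day 14, 70.0, 64.6 and 60.6 at day 7 and 48.8, 23.8 and 85.7 at day 28, with adjusted p of 0.233 and 0.631. The replication-dependent histone genes stayed low after day 7: 35 of 36 were below day 7, none was a peak or dip (0 also at an unadjusted p under 0.05 and in DESeq2), and their summed level was 891 to 1696 CPM at day 14, 6843 to 8975 at day 7 and 951 to 1125 at day 28.

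Of 24 genes of antigen presentation and the interferon response tested, 4 were dips and 7 were lower in the mean contrast, where 1.73% and 7.24% of all genes were. The median log2 change was -0.52, and 11 were below day 7 while 5 were above it, where 19.5% and 22.0% of all genes were. HLA-B and HLA-C encode class I molecules that present peptides at the cell surface, and their reads can be shared with other class I genes. HLA-B had 4.96, 11.9 and 5.55 CPM at day 14, 65.9, 52.8 and 78.1 at day 7 and 24.9, 27.4 and 19 at day 28, and HLA-C had 53.8, 57.6 and 45.4, then 134, 113 and 153, and 153, 172 and 114 CPM. IRF1, a transcription factor of the interferon response, had 4.06, 4.17 and 3.79 CPM at day 14, 9.81, 9.88 and 8.71 at day 7 and 8.13, 9.97 and 7.86 at day 28. B2M, the shared light chain of class I molecules, was above day 7 only, at 162 ± 12.7 CPM at day 14, 73.3 ± 1.60 at day 7 and 195 ± 7.49 at day 28 (SD, n = 3 each). ISG15 was the other dip, not called without day 14 replicate 2 (adjusted p = 0.0537) or 3 (0.0695) or day 7 replicate 3 (0.0646).

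Of 18 endothelial genes tested, 15 were below day 7, where 19.5% of all genes were. Of these 15, 6 were also above day 28, with PECAM1 and CDH5 among them. The list held 1 dip and 1 peak, where 1.73% and 2.34% of all genes were dips and peaks. CDH5, the endothelial cadherin, had 5.30, 6.56 and 9.08 CPM at day 14, 52.6, 69.4 and 61.4 at day 7 and 1.48, 1.00 and 0.865 at day 28. TEK, the angiopoietin receptor, was the only dip, at 3.50, 3.70 and 4.29 CPM at day 14, 37.7, 33.6 and 28.8 at day 7 and 10.3, 13.4 and 9.30 at day 28. Its call against day 28 ended without day 14 replicate 1 (adjusted p = 0.0678) or 2 (0.0573), without day 28 replicate 2 (0.0652) and with library totals alone (0.0528). ENG, a TGF-beta co-receptor of endothelium, was the only peak, at 25.6, 12.2 and 16 CPM at day 14, 10.4, 10.4 and 8.92 at day 7 and 2.00, 2.94 and 2.31 at day 28, but the smaller change was 0.40 (adjusted p = 0.292) without day 14 replicate 1, and the adjusted p was 0.0699, 0.0775 and 0.126 without day 7 replicates 1, 2 and 3.

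Of 13 epicardial markers KRT18 and ITLN1 were dips, where 1.73% of all genes were. Against day 7, 4 markers were lower and 1 higher, where 19.5% and 22.0% of all genes were. Against day 28, 4 were lower and 3 higher, where 7.96% and 7.78% of all genes were. KRT18, a keratin of simple epithelia that many early cells make, had 172, 452 and 209 CPM at day 14, 1198, 889 and 1277 at day 7 and 737, 831 and 961 at day 28 (mean contrast log2 -1.81, SE 0.33, adjusted p = 0.000447). ITLN1, a mesothelial lectin, rested on 2 counts over the day 14 libraries, 20 over those of day 7 and 25 over those of day 28, and was not called in DESeq2 (adjusted p = 0.0611), with library totals alone (0.0581), when day 14 replicate 1 (0.158) or 2 (0.143) was left out, or when day 28 replicate 1 (0.052) or 3 (0.129) was left out. WT1, the defining factor of epicardium, was at 0.564, 0.597 and 0.378 CPM at day 14, 5.10, 1.08 and 0.311 at day 7 and 3.18, 4.48 and 1.73 at day 28. The summed level of the list was 401 to 816 CPM at day 14, 1748 to 2375 at day 7 and 1036 to 1193 at day 28. KRT18 alone gave 172 of 401 CPM in day 14 replicate 1 and 1277 of 2375 in day 7 replicate 3, so the sum is not particular to epicardium. The part of epicardial cells was not tested.

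Other lineages were checked by their markers. The neural crest factor SOX10 had 0 counts in all 9 libraries and the muscle factor MYOD1 had 2 counts in all, both at day 28, and none of 10 neural genes was a peak or a dip (1 dip at an unadjusted p under 0.05 and 1 in DESeq2). The blood and immune markers summed to between 4.51 and 7.82 CPM at day 14, 24.8 and 29.4 at day 7 and 7.5 and 13.4 at day 28, and none of the 7 tested was a peak or a dip (0 also at an unadjusted p under 0.05 and in DESeq2). Pluripotency genes, at 117 to 202 CPM in all at day 14, 1409 to 1512 at day 7 and 27.8 to 32.5 at day 28, held 0 peaks and 0 dips by the same 3 counts. The skeletal myosin gene MYH2 was a peak on 38 counts over the day 14 libraries, 5 over those of day 7 and 17 over those of day 28, and lost its call without day 14 replicate 1 or 3, day 7 replicate 2 or day 28 replicate 2 or 3 (adjusted p between 0.0524 and 0.189).

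Lists of general metabolism and stress held few peaks or dips. Of 21 citric acid cycle genes 11 were above day 7 and 5 higher in the mean contrast, where 22.0% and 10.0% of all genes were. Of 27 fatty acid oxidation genes only LPL was a dip, where 1.73% of all genes were. Of 21 glycolysis genes none was a peak or a dip. The citric acid cycle and glycolysis lists each had 1 peak at an unadjusted p under 0.05 and 0 in DESeq2. Of 13 mitochondrially encoded messenger RNAs 3 were above day 7 and none was a peak (1 at an unadjusted p under 0.05, 0 in DESeq2, 2 in edgeR with library totals alone). Of 34 cytosolic ribosomal protein genes 23 were below day 7 and 6 above day 28, where 19.5% and 7.78% of all genes were. None of 23 genes of the unfolded protein and heat shock response was a peak or a dip (1 peak at an unadjusted p under 0.05, 0 in DESeq2). Of 32 calcium handling and channel genes only SLN, which encodes the calcium pump inhibitor sarcolipin, was a dip, on 24 counts over the day 14 libraries, 52 over those of day 7 and 130 over those of day 28, and it was not called without day 14 replicate 1 (adjusted p = 0.132) or 3 (0.118) or day 7 replicate 1 (0.0936) or 3 (0.0576).

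The stress-induced growth factor gene GDF15 was the only peak of 23 integrated stress response genes and of 18 p53 targets. Of all genes 2.34% were peaks. GDF15 had 23.4, 39.2 and 16.6 CPM at day 14, 6.67, 7.95 and 8.30 at day 7 and 11.8, 16.2 and 7.35 at day 28. It was called against day 28 at an adjusted p of 0.0443, and this was 0.312 without day 14 replicate 2, 0.232 without day 28 replicate 3 and between 0.0635 and 0.114 without day 14 replicate 1, day 28 replicate 1 or any day 7 library. It was 0.0523 with RLE factors and 0.05003 without the mitochondrially encoded genes. The amino acid transporter gene SLC7A5 was a dip, with 17.6, 38.1 and 19.8 CPM at day 14, 55.7, 43.4 and 53.6 at day 7 and 44.6, 58.1 and 69.7 at day 28. Its larger adjusted p was 0.0901 and 0.0794 without day 14 replicates 1 and 3 and 0.0697 without day 28 replicate 3. Of 14 natriuretic peptide and stretch genes 6 were lower and 3 higher in the mean contrast, where 7.24% and 10.0% of all genes were. ACTA1 was the dip and AGT the peak, where 1.73% and 2.34% of all genes were. The natriuretic peptide genes NPPA and NPPB were below day 28 only.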

How the data were processed

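The deposited table holds whole-number counts per gene for 23 libraries, which the authors made from ribosomal RNA-depleted, paired-end libraries, per the labels' protocols. Trim Galore 0.65 (reads cut to 50 bases), STAR 2.7.0, HTSeq and the GENCODE 38 annotation of GRCh38 are named, per the submitters' processing notes. The strand setting of counting is not given in the sources used here, so overlapping and antisense genes are uncertain.

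Of 57521 rows, 44 pseudoautosomal Y copies with 0 counts were left out, leaving 57477. GENCODE 44 gave symbols and positions for 56387 and lacked 1090. Genes passed filterByExpr (minimum count 10) over all libraries, so that expression at day 14 alone could admit a gene, and 22245 were tested. A single robust quasi-likelihood model in edgeR 4.0.16 (limma 3.58.1, R 4.3.3) held the day as factor and TMM factors, with p-values adjusted by Benjamini-Hochberg over all genes and called under 0.05. CPM was computed from TMM-scaled totals. The code was tested on simulated counts. With a simulated 2-fold change, 12 of 50 peaks and 7 of 50 dips were recovered, and with 4-fold 49 and 45. A gene that is neither peak nor dip may thus still have changed.

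The members and the 34 gene lists (790 of 792 entries matched) were chosen with earlier results of these data known, and no list was tested as a set. Genes named are the 12 peaks and 12 dips with the largest smaller log2 change, among characterised symbols with at least 20 CPM on the higher side and no overlap of libraries, then TAGLN, MYH6, LPIN1 and up to 4 peaks and 4 dips per list, with cell type markers. Other list members with values (FN1, SPARC, ACTN1, MYL6, SERPINA1, APOA1, APOA2, POSTN, B2M, PPARGC1A and ESRRG) were picked after these were seen. A few genes that the rule or the lists gave are not reported here. Promoter windows are RefSeq's, and TAGLN's was not used here. Libraries of a day correlated between 0.973 and 0.988 (Pearson, across genes) and differed by more than counting noise, so all were kept.

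Alternatives were DESeq2 1.42.0, RLE factors, library totals alone, no filter on low counts, mitochondrially encoded genes left out, the 9 libraries of the 3 days alone, the replicate number as a block, and each of these 9 libraries left out in turn.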

Additional observations from a re-analysis of the deposited data

How the results depend on the processing

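No gene changed between peak and dip, and none of the 68 genes that the naming rule gave reversed, under any of the 16 alternatives. Over these alternatives 981 of 1085 values of these genes kept their direction and call and 104 kept the direction without the call. For 44 of the 68 genes, the 12 largest peaks and 12 largest dips among them, no alternative changed the call. Those largest peaks and dips were picked by size and lack of overlap in the same libraries. Their kept calls were thus favoured by the choice and are no separate support. Called under every alternative were 153 of the 520 peaks and 167 of the 385 dips. With only the 9 libraries of days 14, 7 and 28, where 17379 genes were tested and the common biological coefficient of variation was 0.134 in place of 0.252, there were 1291 peaks and 1128 dips, 4883 genes higher and 3920 lower in the mean contrast, and 3380 higher and 3566 lower against day 28. Interferon dips then numbered 7. With library totals alone, 2660 genes were higher against day 28, with 608 peaks and 299 dips. The other settings gave 509 peaks and 448 dips (DESeq2), 499 and 388 (RLE), 443 and 469 (mitochondrially encoded genes left out) and 437 and 410 (no filter, 47991 genes tested). Leaving out each library gave 273 to 365 peaks, 274 to 413 dips, 1076 to 1674 genes higher and 983 to 1773 lower in the mean contrast, 2937 to 4205 higher and 3935 to 4781 lower against day 7, and 972 to 1533 higher and 1315 to 1835 lower against day 28. In these fits an arm of 2 libraries shares its spread with the other days. The cause of these shifts was not tested. Same-numbered libraries of the 3 days did not deviate together (correlations of deviations between -0.053 and 0.059), so the numbers were not taken as pairs, and a fit with the replicate number as a block gave 486 peaks and 379 dips. With 3 libraries a day, genes of few counts, such as MYOM3, ITLN1, MYH2 and SLN, are the least precise.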
